A study of Mus musculus with 24 samples.

Results

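Keratins, claudins, desmosome components and a few of their regulators were measured in cultures grown from mouse embryonic stem (ES) cells that either kept or lacked a pair of nuclear receptors, REV-ERBα and REV-ERBβ. The set was made up of all genes whose symbol is Krt, Cldn, Dsg, Dsc or Pkp followed by a number, together with Cdh1, Epcam, Dsp, Jup, Grhl2, Esrp1, Ovol1 and Trp63. These were 91 of the 33079 rows of the expression table and 90 symbols, since Krt74 has 2 rows. By family they were 47 keratin rows, 23 claudins, 9 desmosomal cadherins, 6 desmosomal plaque proteins, 2 surface adhesion molecules and 4 regulators. The values are RPKM, the reads on a gene's exons scaled to the length of those exons and to the library total.

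WT cells were Per2::Luciferase knock-in ES cells without further editing. KO cells carried the same knock-in and were deficient in Rev-erba and Rev-erbb, each of which had lost an exon to CRISPR/Cas9, Rev-erbb before Rev-erba, in lines grown from picked colonies. Embryoid bodies of both genotypes were cultured to differentiation day 28, given 100 nM dexamethasone, a glucocorticoid that sets the phase of the circadian clock in cultured cells, and collected every 4 h from 12 to 56 h later, with the RNA of 3 embryoid bodies pooled per library. This gave 12 WT and 12 KO libraries, 1 for each genotype and time point, so each mean and SD below runs over 12 time points and holds change over time as well as noise between libraries. All KO libraries are of edited cells and all WT libraries are of the unedited parent, so the deletion and any other difference between these cells cannot be told apart, and where the labels do not tie libraries to separate cultures the p-values measure only the spread between these libraries.

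Keratins are the intermediate filament proteins of epithelial cells and form filaments as obligate pairs of a type I and a type II chain. Krt8 and Krt18 are the pair of simple epithelia, Krt5 and Krt14 that of the dividing basal layer of stratified epithelia, and Krt1 and Krt10 that of the keratinocytes which have left the basal layer. The filaments are anchored at desmosomes, where the cadherins desmoglein (Dsg) and desmocollin (Dsc) join neighbouring cells and plakoglobin (Jup), plakophilins (Pkp) and desmoplakin (Dsp) link them to keratin. Claudins are the membrane proteins that form the strands of tight junctions and set which ions pass between cells. Type I keratins other than Krt18 lie together on mouse chromosome 11, type II keratins and Krt18 on chromosome 15, and the desmosomal cadherins on chromosome 18.

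Each library held between 6183500.5 and 10287969 fragments on exons, and the member genes took 0.640% of the exon fragments on average in WT (0.549% to 0.772%) and 0.866% in KO (0.657% to 1.14%). Nr1d1, which encodes REV-ERBα, was at 3.58 to 7.48 RPKM in WT and 2.48 to 9.74 in KO, and Nr1d2, which encodes REV-ERBβ, at 0.895 to 3.02 and 1.38 to 5.27. Values over a whole gene do not show the loss of an exon and so do not check the genotype. In all, 55 of the 91 rows had a mean above 0.5 RPM (the same scaling without exon length) in either genotype and were tested, 36 were not, and Cldn24 had no fragment in any library. Among the 55, Cldn11 and Krt75 passed this filter through WT alone and Dsc3 and Dsg4 through KO alone, and such genes had to differ. By mean RPKM over all libraries, 46 rows reached 1, 21 reached 10 and 6 reached 100, the last being Krt5, Krt14, Krt19, Krt8, Krt7 and Krt15.

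The first comparison asked whether these genes were at other levels in KO than in WT cells. Most were higher in KO. At an adjusted p under 0.05 (limma on log2(RPKM + 0.1), Benjamini-Hochberg over 15112 genes), 37 of the 55 tested members differed, 31 higher and 6 lower, which is 67.3%, 56.4% and 10.9% of them, against a background of 26.3% of all genes tested, 11.5% higher and 14.7% lower. Of the 51 members expressed in both genotypes, 33 were called, 29 of them higher. The median log2 fold change (KO over WT) of the tested members was 0.39, beside -0.01 for all genes. KO exceeded WT at all 12 time points for 15 members, 27.3% of those tested against 2.65% of all genes, and lay below it at all 12 for 2 (Krt1 and Krt75), 3.64% against 3.65%. At an unadjusted p under 0.05, 41 members differed (74.5% against 38% of all genes). The ranges of the 12 KO and 12 WT libraries overlapped for every tested member, and 0.609% of all genes had ranges that did not overlap. These are bulk cultures, so more or fewer cells of a type and more or less RNA per cell cannot be told apart.

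**Figure D1:**
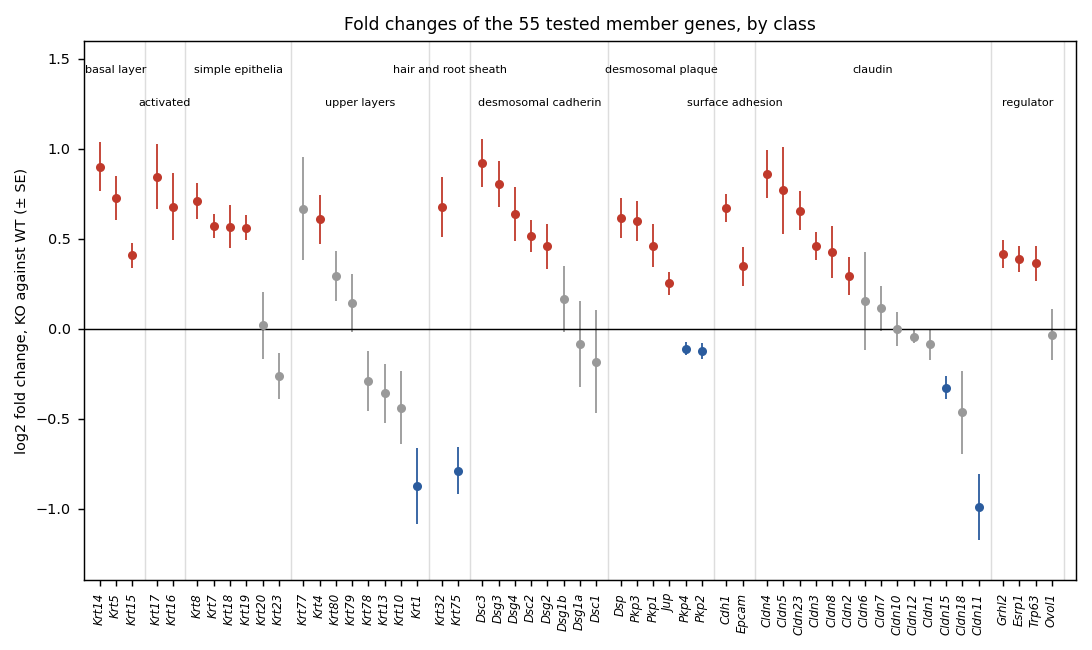
Log2 fold change of each tested member between KO and WT (y axis, points with standard errors, 12 libraries per genotype), grouped by class along the x axis. Red points are higher and blue points lower in KO at an adjusted p under 0.05, and grey points did not pass. The 31 red points include the basal keratins, 4 simple keratins and 6 claudins, the 6 blue points are Krt1, Krt75, Cldn11, Cldn15, Pkp2 and Pkp4, and the 18 grey points lie on both sides of 0.

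Keratins of the basal layer were all higher in KO, beside 11.5% of all genes. Krt5 ranged from 114 to 182 RPKM in WT with a median of 134, and from 142 to 401 in KO with a median of 248. The KO library was above the WT library at 11 of 12 time points, the exception being 32 h. The log2 fold change of Krt5 was 0.73 (SE 0.12, adjusted p = 0.000131). Its type I partner Krt14 ranged from 79.5 to 176 RPKM in WT (median 124) and from 144 to 376 in KO (median 237). KO was above WT at every time point, with a log2 fold change of 0.90 (SE 0.14, adjusted p = 4.74e-05). Krt15, a further basal keratin, went from 89.0 ± 9.77 RPKM in WT to 119 ± 16.3 in KO (SD, n = 12), higher at 12 of 12 time points with a log2 fold change of 0.41 (SE 0.07, adjusted p = 0.000149). The summed level of the 3 genes was 358 ± 49.5 RPKM in WT and 599 ± 136 in KO, a ratio of 1.67.

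The 40 h library of KO held the highest value of Krt5, Krt14, Krt15 and of several genes below, and its 32 h library the lowest of Krt5 and Krt14. Without the 40 h library the log2 fold change was 0.66 for Krt5 and 0.84 for Krt14, and without the 32 h library it was 0.79 and 0.96. All 4 values remained past the threshold. Krt17, which is induced with Krt16 in activated and wounded keratinocytes, ranged from 32.4 to 84.2 RPKM in WT (median 58.2) and from 54.8 to 208 in KO (median 103), a log2 fold change of 0.84 (SE 0.18, adjusted p = 0.00124). Krt16 was higher as well, with medians of 20.7 RPKM in WT (9.66 to 34.9) and 35.4 in KO (17.4 to 55.2, adjusted p = 0.00827). KO was above WT at 10 of 12 time points for Krt17 and at 9 for Krt16. Krt14, Krt16 and Krt17 share long stretches of near-identical sequence. Reads that mapped equally well to more than 1 of them were not counted, so their levels are uncertain.

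Of the 6 tested keratins of simple epithelia 4 were higher in KO as well, beside 11.5% of all genes. Krt8 ranged from 65.5 to 128 RPKM in WT (median 89.5) and from 126 to 212 in KO (median 156), and the ranges met only at the lowest KO and the highest WT library. Its log2 fold change was 0.71 (SE 0.10, adjusted p = 1.86e-05), higher in KO at 12 of 12 time points. Krt18, its partner, ranged from 50.5 to 112 RPKM in WT (median 71.2) and from 84.8 to 155 in KO (median 112), a log2 fold change of 0.57 (SE 0.12, adjusted p = 0.00114). Both have processed pseudogenes, and reads that mapped equally well to those were not counted. Krt7 and Krt19 are found in ducts and other simple epithelia. Krt7 ranged from 77.1 to 99.8 RPKM in WT (median 81.7) and from 97.6 to 165 in KO (median 121), a log2 fold change of 0.57 (SE 0.07, adjusted p = 1.5e-06). Krt19 ranged from 92.0 to 146 RPKM in WT (median 117) and from 132 to 211 in KO (median 168), a log2 fold change of 0.56 (SE 0.07, adjusted p = 3.09e-06). For both, each KO library exceeded the WT library of the same hour. Krt20 (log2 fold change 0.02, adjusted p = 0.952) and Krt23 (-0.26, adjusted p = 0.133, higher in KO at 4 of 12 time points) did not pass. The summed level of the 6 was 383 ± 54.5 RPKM in WT and 575 ± 71.9 in KO, a ratio of 1.5.

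**Figure D2:**
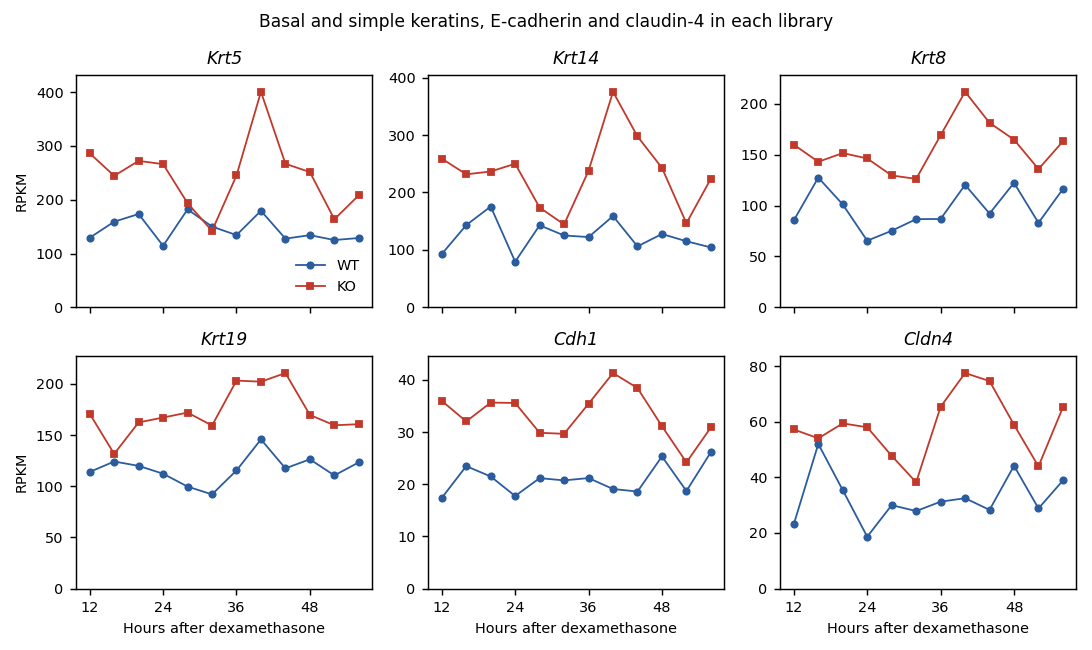
RPKM (y axis, from 0) against hours after dexamethasone (x axis) for Krt5, Krt14, Krt8, Krt19, Cdh1 and Cldn4, with 1 library per point, WT in blue and KO in red. KO lies above WT at all 12 time points for 5 of the 6 genes and at 11 for Krt5, and the KO values of Krt5, Krt14, Krt8, Cdh1 and Cldn4 are highest at 40 h.

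Of the 8 tested keratins of the upper layers, Krt4 was higher, Krt1 was lower and 6 did not pass. These counts are near the shares of all genes, 11.5% higher and 14.7% lower. Krt1 ranged from 35.4 to 120 RPKM in WT (median 62.2) and from 15.1 to 53.5 in KO (median 37.4). The ranges overlapped, but the KO library was below the WT library of its time point at 12 of 12, and the log2 fold change was -0.87 (SE 0.21, adjusted p = 0.00364). Krt10, its partner, ranged from 58.9 to 205 RPKM in WT (median 105) and from 40.7 to 123 in KO (median 88.2), and its log2 fold change of -0.44 (SE 0.20) gave an adjusted p of 0.114, which was 0.0369 with trend and rhythm as covariates. Krt4 and Krt13 are the pair of the upper layers of internal stratified epithelia such as the oesophagus. Krt4 ranged from 19.9 to 40.1 RPKM in WT (median 26.6) and from 26.7 to 61.2 in KO (median 45.6), a log2 fold change of 0.61 (SE 0.14, adjusted p = 0.00196). Krt13 ranged from 28.1 to 69.5 RPKM in WT (median 40.3) and from 21.1 to 65.7 in KO (median 35.2), with a log2 fold change of -0.36 (SE 0.17, adjusted p = 0.110). Krt77 (0.67, adjusted p = 0.0884) and Krt80 (0.29, adjusted p = 0.118) did not pass either. In a fit with the time point as a block, which was not the main one and is given at the end, Krt10, Krt13 and Krt77 passed. The summed level of the 12 upper-layer keratin rows was 281 ± 92.6 RPKM in WT and 228 ± 56.8 in KO, with KO above WT at 2 of 12 time points.

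Ratios within a library do not depend on its total and show how the keratins moved against each other. These ratios were chosen with the levels known and are given as descriptions. The log2 ratio of Krt1 to Krt5 was -1.22 ± 0.59 in WT and -2.82 ± 0.44 in KO, and 11 of 12 KO libraries lay below the lowest WT library. Krt10 to Krt14 gave -0.20 ± 0.64 and -1.54 ± 0.42, with 7 KO libraries below the lowest WT library. The ratio of the partners Krt1 and Krt10 was -0.79 in WT (-0.96 to -0.64) and -1.22 in KO (-1.43 to -1.07), so that all 12 KO libraries lay below all 12 WT libraries. Krt4 to Krt13 moved the other way, from -0.61 ± 0.28 to 0.36 ± 0.31, with 11 KO libraries above the highest WT library. Krt8 to Krt5, a simple against a basal keratin, was -0.59 ± 0.31 in WT and -0.61 ± 0.25 in KO, and Krt7 to Krt19 was -0.49 ± 0.12 and -0.47 ± 0.13. The partners Krt8 with Krt18 and Krt5 with Krt14 shifted as well, by less than Krt1 with Krt10 or Krt4 with Krt13. Krt8 to Krt18 went from 0.31 ± 0.10 to 0.46 ± 0.09, with 8 KO libraries above the highest WT library. Krt5 to Krt14 went from 0.24 ± 0.16 to 0.06 ± 0.11, with 3 KO libraries below the lowest WT library. How often the ratios of other gene pairs separate the genotypes was not examined.

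**Figure D3:**
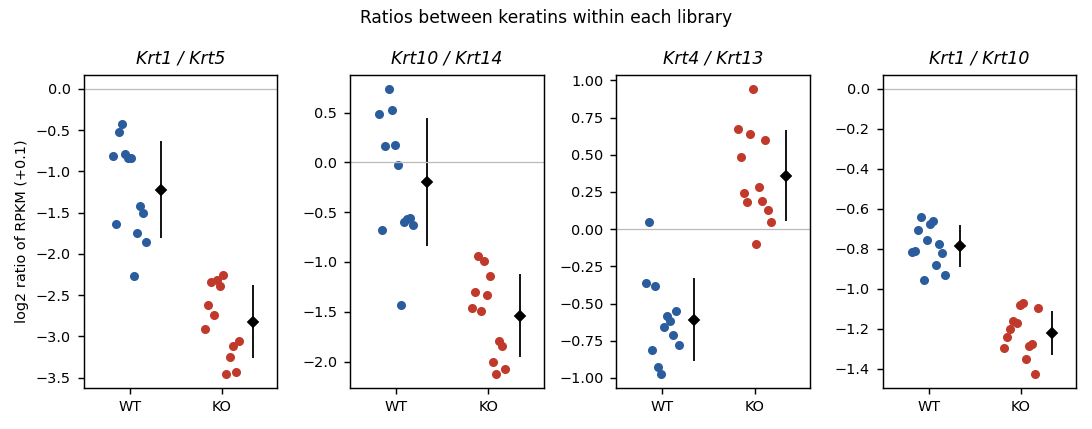
Log2 ratio of RPKM (+0.1) between keratins within each library (y axis), for WT (blue) and KO (red), with 1 point per library and the mean ± SD beside them in black. KO libraries lie lower for Krt1/Krt5, Krt10/Krt14 and Krt1/Krt10, where all 12 lie below WT, and higher for Krt4/Krt13.

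Keratins of hair and its root sheaths were near the limit of detection. Of 21 such rows 2 were tested. Krt32, a hair cuticle keratin, was at 0.312 ± 0.102 RPKM in WT and 0.574 ± 0.237 in KO (adjusted p = 0.00401), from 16.8 fragments per KO library on average. Krt75, of the companion layer of the hair follicle, was at 0.202 ± 0.0992 and 0.0694 ± 0.0237 (adjusted p = 0.000121), from a mean of 11.2 WT and 3.92 KO fragments. The 21 rows summed to 0.909 ± 0.191 RPKM in WT and 1.01 ± 0.267 in KO.

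Among desmosomal cadherins, 5 of the 8 tested were higher in KO and none was lower, beside 11.5% and 14.7% of all genes. Without Dsc3 and Dsg4, which entered the test through KO alone, 3 of 6 were higher. Dsg3, the desmoglein of the basal and lower layers of stratified epithelia, ranged from 3.71 to 6.88 RPKM in WT (median 4.97) and from 4.93 to 12.5 in KO (median 9.30), higher at 12 of 12 time points with a log2 fold change of 0.80 (SE 0.13, adjusted p = 6.16e-05). Dsc2, the desmocollin of most epithelia, ranged from 5.78 to 9.13 RPKM in WT (median 7.17) and from 7.38 to 13.4 in KO (median 10.4), a log2 fold change of 0.52 (SE 0.09, adjusted p = 0.000149). Dsg2, its counterpart among the desmogleins, was at 3.33 ± 1.03 RPKM in WT and 4.47 ± 0.649 in KO (adjusted p = 0.00870). Desmosomal cadherins of the upper layers did not pass. Dsg1b was at 1.07 ± 0.412 RPKM in WT and 1.20 ± 0.415 in KO (adjusted p = 0.535), Dsg1a at 0.769 ± 0.369 and 0.697 ± 0.284 (adjusted p = 0.819), and Dsc1 at 1.20 ± 0.668 and 0.984 ± 0.472 (adjusted p = 0.671). The Dsg1 genes are recent copies of each other, so reads may be lost from them. The log2 ratio of Dsg1b to Dsg3 was -2.17 ± 0.36 in WT and -2.81 ± 0.22 in KO, with 7 KO libraries below the lowest WT library. Dsc3 and Dsg4 rose from a mean of 5.38 and 5.29 fragments to one of 18.5 and 11.8, so their values are imprecise, and the similarly low Dsg1c was not tested.

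All 6 plaque genes were called, 4 higher and 2 lower, beside 11.5% and 14.7% of all genes. Dsp, the plakin that binds keratin filaments, ranged from 12.7 to 21.2 RPKM in WT (median 16.1) and from 16.4 to 33.4 in KO (median 25.5), a log2 fold change of 0.61 (SE 0.11, adjusted p = 0.000276). Pkp3 was at 7.39 ± 1.31 RPKM in WT and 11.3 ± 2.42 in KO (log2 fold change 0.60, adjusted p = 0.000293), and Pkp1, the plakophilin of stratified epithelia, at 14.2 ± 3.03 and 19.7 ± 4.39 (0.46, adjusted p = 0.00537). Jup, which is found in desmosomes and in adherens junctions, went from 29.6 ± 2.54 to 35.5 ± 4.90 RPKM (0.25, adjusted p = 0.00459). The changes of Pkp2 and Pkp4, which are also expressed outside epithelia, were small. Pkp2 was at 9.57 ± 0.734 RPKM in WT and 8.77 ± 0.669 in KO (log2 fold change -0.12, adjusted p = 0.0332), and Pkp4 at 4.15 ± 0.256 and 3.84 ± 0.253 (-0.11, adjusted p = 0.0325). Neither call held in every fit that left out 1 library. Pkp2 did not pass when WT 40, 44 or 48 h or KO 12, 20, 24, 28 or 44 h was left out, nor Pkp4 without WT 12, 32, 36, 44 or 56 h or KO 40, 44, 48 or 56 h, with adjusted p up to 0.0627 and 0.0580.

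Cdh1, which encodes the epithelial cadherin of adherens junctions, had the smallest p of all members. It ranged from 17.4 to 26.1 RPKM in WT (median 20.9) and from 24.2 to 41.3 in KO (median 33.7), higher at 12 of 12 time points with a log2 fold change of 0.67 (SE 0.08, adjusted p = 1.15e-06). Epcam, an adhesion molecule of simple and progenitor epithelia, ranged from 9.19 to 20.5 RPKM in WT (median 12.2) and from 13.9 to 20.7 in KO (median 16.2), a log2 fold change of 0.35 (SE 0.11, adjusted p = 0.0218).

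Claudins were less uniform, with 6 of the 14 tested higher and 2 lower, beside 11.5% and 14.7% of all genes. The lower count is near the share of all genes, and Cldn11, 1 of the 2, entered the test through WT alone. Cldn4, a claudin of tight epithelia, ranged from 18.7 to 52.1 RPKM in WT (median 30.6) and from 38.3 to 77.6 in KO (median 58.5), higher at 12 of 12 time points with a log2 fold change of 0.86 (SE 0.13, adjusted p = 5.11e-05). Its neighbour on chromosome 5, Cldn3, went from 6.19 ± 0.887 to 8.55 ± 1.13 RPKM (0.46, adjusted p = 0.000117), and Cldn23 from 3.62 ± 0.684 to 5.78 ± 1.12 (0.66, adjusted p = 0.000112). Both were higher at 12 of 12 time points. Cldn2, which forms channels for cations, went from 21.5 ± 4.33 to 26.3 ± 4.51 RPKM (0.29, adjusted p = 0.0374), also higher at 12 of 12, but its call was lost in 14 of the 24 fits that left out a library, namely WT 12, 16, 20, 24, 28, 32 or 40 h and KO 24, 28, 32, 36, 44, 52 or 56 h, with adjusted p up to 0.0672. With the time point as a block, a fit given at the end, the adjusted p of Cldn2 was 0.000316 (limma). Cldn5, known from vessel endothelium, was at 0.582 ± 0.323 RPKM in WT and 1.02 ± 0.396 in KO (0.77, adjusted p = 0.0208). The call of Cldn8, at 0.532 ± 0.131 and 0.761 ± 0.220 RPKM (adjusted p = 0.0288), was lost without the 36 h library of KO (0.0531).

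Cldn15 was lower in KO, at 4.72 ± 0.667 RPKM in WT and 3.72 ± 0.327 in KO (-0.33, adjusted p = 0.000606), as was the low Cldn11, at 0.313 ± 0.136 and 0.112 ± 0.0957 RPKM from a mean of 10.5 and 3.58 fragments (adjusted p = 0.000334). The remaining claudins with values above 5 RPKM did not pass. Cldn1, needed for the skin barrier, was at 9.58 ± 1.20 RPKM in WT and 9.08 ± 1.63 in KO (adjusted p = 0.481), Cldn6, a claudin of early embryonic epithelia, at 7.49 ± 3.22 and 8.17 ± 3.61 (adjusted p = 0.717), Cldn7 at 6.12 ± 1.81 and 6.45 ± 0.999 (adjusted p = 0.533), and Cldn12 at 6.14 ± 0.322 and 5.96 ± 0.406 (adjusted p = 0.386). Cldn6 varied more than 6-fold between WT libraries, from 1.81 to 12.5 RPKM.

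Of the 4 regulators 3 were higher, beside 11.5% of all genes. Grhl2, a transcription factor that activates Cdh1 and claudin genes, ranged from 1.22 to 1.77 RPKM in WT (median 1.47) and from 1.47 to 2.36 in KO (median 2.05), a log2 fold change of 0.41 (SE 0.08, adjusted p = 0.000323). Esrp1, a splicing factor of epithelial cells, went from 3.41 ± 0.442 to 4.49 ± 0.564 RPKM (0.39, adjusted p = 0.000349). Both exceeded WT at 12 of 12 time points. Trp63, which encodes p63, the transcription factor of basal cells, was at 1.55 to 2.13 RPKM in WT and 1.51 to 3.63 in KO (0.36, adjusted p = 0.00723). Ovol1, which acts as basal cells leave the cell cycle, was at 1.28 ± 0.357 and 1.25 ± 0.313 RPKM (adjusted p = 0.884).

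Genes of the same structures outside the set were counted from lists, to be read beside the 11.5% of all genes that were higher and the 14.7% that were lower. Of 11 rows of hemidesmosome and basement membrane genes, which hold basal cells to their matrix, 6 were higher and none lower, among them Itgb4 (3.64 to 6.55 RPKM) and Col17a1 (9.69 to 14.3 RPKM). Of 9 epithelial surface genes 7 were higher and none lower. Of 12 further epithelial regulators 6 were higher and none lower. Of 15 further tight junction genes 6 were higher and 2 lower, and of 8 further adherens junction genes 4 were higher, with Ctnnb1, which encodes β-catenin, at 89.2 and 91.4 RPKM (adjusted p = 0.352). Of 13 genes of the cornified layer 3 were higher (Sprr1a, Tgm1 and Ppl), 1 was lower (Tgm3, which entered the test through WT alone), and Lor, the main cornified envelope protein, was at 80.4 RPKM in WT and 63.6 in KO (adjusted p = 0.491).

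Lists for other cells of such cultures were counted in the same way. Of 13 rows of mesenchymal genes 4 were higher (Snai1, Snai2, Col1a1 and Col1a2) and 2 lower (Cdh2 and Twist1), with sums of 2364 to 2838 RPKM in WT and 2415 to 3040 in KO. Of 12 endoderm and yolk sac genes 0 were called, with sums of 120 to 1201 RPKM in WT and 109 to 1135 in KO. Of 7 mesothelial genes, a lining that itself expresses simple keratins, Upk1b was higher and Wt1 and Bnc1 lower, with sums of 302 to 382 and 278 to 444 RPKM. Of 7 tested gut epithelial genes Muc13 was lower, with sums of 19.5 to 66.5 and 14.8 to 44.9 RPKM. Of 3 tested trophoblast genes Syna was higher, having entered the test through KO alone, with sums of 4.59 to 80.0 and 8.50 to 50.5 RPKM over the list, and of 4 tested pluripotency genes 0 were called. Of 7 neural genes 5 were lower, or 2 of the 4 that were above the filter in both genotypes, since the others entered the test through WT alone and had to differ. Gfap was at 4.42 RPKM in WT and 0.0415 in KO, and the 7 genes summed to 4.71 to 55.8 and 2.17 to 11.7 RPKM. No gene of these lists was at 0 in all libraries, and the part of any such cells in the levels of the members was not tested.

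The second comparison concerned time, since the cells were sampled over nearly 2 days to look for rhythms. For a 24 h rhythm, 0 of the 55 members passed in WT or in KO, and 0 for a difference between them (lowest adjusted p 0.501, 0.363 and 0.777, limma), where 0.0397%, 0.0794% and 0% of all genes passed. At an unadjusted p under 0.05 the counts were 12, 15 and 14 members (21.8%, 27.3% and 25.5%), against 8.23%, 8.39% and 4.93% of all genes. A linear trend over the 44 h of sampling passed for 9 members in WT and 3 in KO, 16.4% and 5.45% of those tested, against 2.89% and 3.14% of all genes. A trend difference between the genotypes passed for 0 members (lowest adjusted p 0.667). At an unadjusted p under 0.05 there were 2 members (3.64%, against 6.5% of all genes). The trends of the genotypes were thus not shown to differ.

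Of the 9 members with a trend in WT, 7 fell and 2 rose. They held 3 of the 8 tested upper-layer keratins. The fitted change on the log2 scale over 44 h was -1.66 for Krt1 (SE 0.36, adjusted p = 0.0146), -1.63 for Krt10 (SE 0.32, 0.00718), -2.27 for Dsc1 (SE 0.44, 0.00753), -1.94 for Dsg1a (SE 0.34, 0.00321) and -1.42 for Dsg1b (SE 0.24, 0.00229). Krt80 (-1.01) and Ovol1 (-0.95) fell as well, while Cldn1 (0.51) and Cldn2 (0.71) rose. Krt10, Dsc1, Dsg1a and Dsg1b passed in all 24 fits that left out a library, Krt1 in all but that without WT at 56 h (0.0660). The call was lost without WT 24, 40 or 44 h for Cldn1, WT 12, 28, 44 or 56 h for Cldn2, WT 20, 28, 44, 52 or 56 h for Ovol1, and WT 20, 28, 40, 44, 52 or 56 h for Krt80. In KO, Dsg1a (-1.37) and Dsg1b (-0.98) fell and Cldn1 (0.73) rose, and Cldn1 passed in all 24 fits. The call of both Dsg1 genes was lost without KO at 12, 20, 28, 40, 44 or 52 h, and that of Dsg1a also without KO at 56 h. The KO changes of Krt1 and Krt10 were -0.84 and -0.77 (adjusted p = 0.228 and 0.205).

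**Figure D4:**
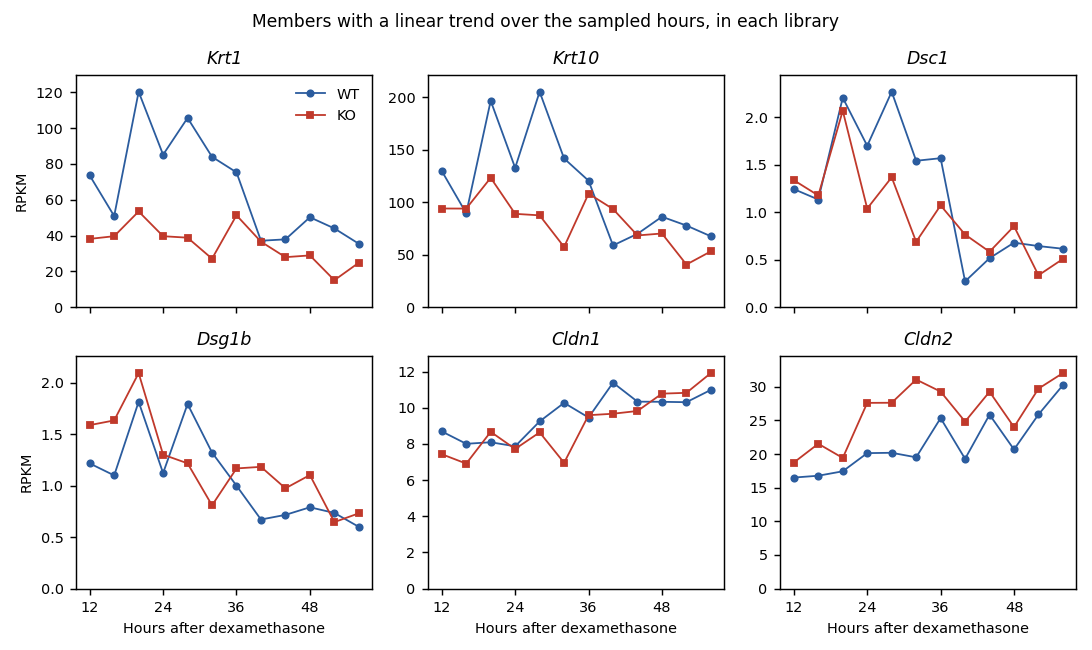
RPKM (y axis, from 0) against hours after dexamethasone (x axis) for Krt1, Krt10, Dsc1, Dsg1b, Cldn1 and Cldn2, with 1 library per point, WT in blue and KO in red. Krt1, Krt10, Dsc1 and Dsg1b are highest in WT at 20 and 28 h and lower from 40 h on, and Cldn1 and Cldn2 increase over the course.

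The third question was which members varied together. For each gene the mean of its genotype was taken off the log2 values, and the 46 members with a mean of at least 1 RPKM were correlated over the 24 libraries, which share depth and the mixture of cells within a library. Trends over the hours were left in these values, so shared or opposite change over time enters each r. Its part in the correlations was not tested. These correlations are descriptions. The median SD of these members within genotypes was 0.312 on the log2 scale, beside 0.120 for all 11872 tested genes of that level, and 43 of the 46 lay above that value. The 5 largest SDs among the tested members were 0.757 for Krt77, 0.744 for Dsc1, 0.716 for Cldn6, 0.631 for Cldn5 and 0.617 for Dsg1a. Over 1035 pairs the median Pearson r was 0.198, with 137 pairs above 0.7.

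The partner chains were among the most similar members. Krt1 and Krt10 had an r of 0.982, Krt8 and Krt18 of 0.962, and Krt5 and Krt14 of 0.926, and these values were 0.986, 0.974 and 0.890 within the 12 WT libraries and 0.976, 0.936 and 0.962 within the 12 KO libraries. Each pair had its own company. Krt10 varied with Dsg1b (0.938) and Dsc1 (0.934), the desmosomal cadherins of the same layers. Krt5 varied with Jup (0.949), and Krt14 with Krt17 (0.928) and Trp63 (0.804). Krt8 varied with Cldn4 (0.889), and Krt18 with Dsg2 (0.869) and Cldn3 (0.820). Between these pairs the values were 0.461 for Krt5 with Krt10 (0.295 within WT, 0.649 within KO), 0.545 for Krt5 with Krt8 (0.329 and 0.827) and -0.267 for Krt8 with Krt10 (-0.556 and 0.267), so that they were higher in KO in all 3 cases and of opposite sign in the last. Other genes crossed the groups, such as Krt14 and Cldn4 (0.752). Krt23, counted above with the simple keratins, varied with the upper-layer Krt78 (0.819) and Krt77 (0.805) and not with Krt8 (-0.277) or Krt18 (-0.300). Pkp1 with Pkp3 (0.943) and Dsp with Dsg3 (0.920) varied together, whereas Cldn2 ran against Dsg1b (-0.741) and Ovol1 (-0.742).

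**Figure D5:**
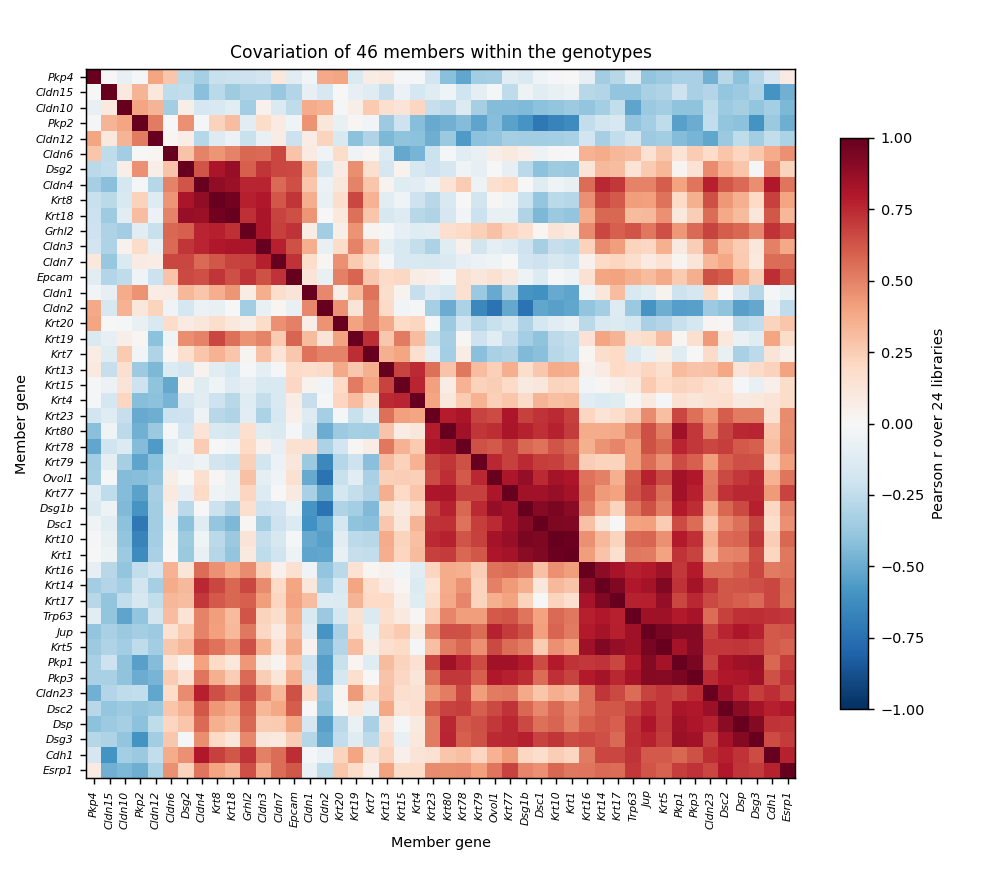
Pearson r between the log2 values of 46 members over 24 libraries after removing each genotype's mean (colour, from -1 in blue to 1 in red), with the genes on both axes ordered by average-linkage clustering. A block around Krt8, Krt18 and Cldn4, one around Krt10, Krt1, Dsc1 and Dsg1b, and one around Krt5, Krt14, Jup and Trp63 stand out along the diagonal.

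The stretches before the transcript starts of 6 of these genes are given because they belong to the groups that varied together. Each is the 250 bases before the start in RefSeq on the GRCm38.p6 build, 5′ to 3′ on the strand of the gene, for the simple group Krt8 (chr15:102004343-102004592, minus strand), Krt18 (chr15:102027966-102028215, plus), Cldn4 (chr5:134946935-134947184, minus) and Epcam (chr17:87635729-87635978, plus), the basal Krt5 (chr15:101712906-101713155, minus) and the upper-layer Krt10 (chr11:99389365-99389614, minus). Capitals mark matches, on either strand, to CAGGTG (the E-box bound by ZEB and SNAI repressors), AGGTCA (a nuclear receptor half-site), GGGCGG (the GC box), TATAAA (the TATA box), AACCNGTT (a Grainyhead-like motif) and TTGCGCAA (a C/EBP motif). No 2 matches overlapped.
Krt8: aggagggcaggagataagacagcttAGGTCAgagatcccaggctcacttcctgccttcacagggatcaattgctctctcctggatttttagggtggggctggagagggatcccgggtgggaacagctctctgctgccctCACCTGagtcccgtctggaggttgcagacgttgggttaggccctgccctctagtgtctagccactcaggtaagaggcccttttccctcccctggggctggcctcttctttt
Krt18: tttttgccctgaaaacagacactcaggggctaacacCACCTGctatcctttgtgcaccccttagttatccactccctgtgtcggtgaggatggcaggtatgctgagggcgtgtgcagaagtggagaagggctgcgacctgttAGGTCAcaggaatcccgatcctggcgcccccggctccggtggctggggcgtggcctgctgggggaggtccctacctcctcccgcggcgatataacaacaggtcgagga
Cldn4: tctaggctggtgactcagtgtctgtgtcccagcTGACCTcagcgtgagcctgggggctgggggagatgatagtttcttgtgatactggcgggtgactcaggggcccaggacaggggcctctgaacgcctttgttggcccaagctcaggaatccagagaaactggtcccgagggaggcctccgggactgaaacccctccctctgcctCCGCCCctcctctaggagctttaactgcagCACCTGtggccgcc
Epcam: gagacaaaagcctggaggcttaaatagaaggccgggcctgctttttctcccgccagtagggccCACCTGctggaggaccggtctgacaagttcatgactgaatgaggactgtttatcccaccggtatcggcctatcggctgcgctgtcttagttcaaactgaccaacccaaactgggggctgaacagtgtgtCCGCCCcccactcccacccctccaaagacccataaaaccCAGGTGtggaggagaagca
Krt5: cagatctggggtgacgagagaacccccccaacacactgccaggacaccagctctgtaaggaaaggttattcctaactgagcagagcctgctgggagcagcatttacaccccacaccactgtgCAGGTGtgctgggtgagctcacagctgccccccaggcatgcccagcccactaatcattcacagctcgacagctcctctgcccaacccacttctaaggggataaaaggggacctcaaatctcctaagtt
Krt10: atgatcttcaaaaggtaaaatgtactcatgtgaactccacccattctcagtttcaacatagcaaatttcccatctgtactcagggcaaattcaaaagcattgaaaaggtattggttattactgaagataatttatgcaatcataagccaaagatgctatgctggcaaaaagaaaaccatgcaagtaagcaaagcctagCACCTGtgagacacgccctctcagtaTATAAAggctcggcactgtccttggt

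CAGGTG was found at least once in each of the 6 sequences, on 1 strand or the other, 111 bases before the start in Krt8, 214 in Krt18, 14 in Cldn4, 187 and 19 in Epcam, 128 in Krt5 and 52 in Krt10. The same stretches of Krt7, Krt13, Cldn3, Dsp, Jup and Krt79 were searched as well and are not printed. Krt7 and Krt79 held CAGGTG, while Krt13, Cldn3, Dsp and Jup did not. Its presence in all 6 printed sequences thus depends on which were printed. A RefSeq promoter within 100 bases of the start used in the expression table was at hand for 56 of the 90 symbols. CAGGTG lay in 17 of these 56 (30.4%), beside 17.2% of 32851 promoters of the same length, and in 13 of the 29 tested members. AGGTCA, the core of the sites that REV-ERBs bind, lay in 10 of the 56 (17.9%), including Krt8, Krt18 and Cldn4, beside 14.0% of all promoters. TATAAA lay in 17 (30.4% beside 12.4%), Krt10 among them, and GGGCGG in 16 (28.6% beside 32.7%). Among the 29 tested members, 7 held AGGTCA, 4 held TATAAA and 15 held GGGCGG, so most TATAAA matches were in members below the filter. AACCNGTT lay in 1 (1.79% beside 1.79%) and TTGCGCAA in 0 (beside 0.164%). These are matches of letters in a window, with no test, and show no binding.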

How the data were processed

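The authors sequenced polyA-selected RNA as 101-bp paired-end reads with an unstranded kit, and deposited RPKM over the exons of UCSC known canonical genes from HOMER. The submitters' processing notes name Trimmomatic 0.36, STAR 2.5.4b and the GRCm38 (mm10) build, and only alignments with a mapping quality of at least 10 were kept. Reads of overlapping antisense genes cannot be told apart. Multiplied back by length and total, 100% of the values were whole multiples of 0.5 fragment (tolerance 0.01). These served to describe depth only, with no count test. The 15112 genes above a mean of 0.5 RPM in either genotype entered limma 3.58.1 (R 4.3.3) as log2(RPKM + 0.1), which understates changes of low genes, with an adjusted p under 0.05. The rhythm fit had a linear trend, a 24 h cosine and a sine per genotype. The fits were tested on simulated data with 200 changed genes each. The trend fit recovered 0.5% of 1.5-fold and 33% of 2-fold trends over 44 h in KO. The rhythm fit recovered 70% and 99% of rhythms with those folds as amplitude. The comparison of KO with WT recovered 9.5% of 1.25-fold, 85.5% of 1.5-fold and 99% of 2-fold changes. Same-time libraries deviated together (r over 0.1) in 7 of 12 time points only, with r from -0.18 to 0.39. The mean r was 0.16 at the same time point and -0.01 between different time points. Time points were not taken as pairs in the main fit, and a fit with them as a block is given below. Counts of time points at which KO exceeded WT are descriptions.

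Members and gene lists were chosen with earlier results of these data known. Members named with values are the 8 genes given by symbol, the 20 called with the smallest p, the 8 highest keratins and claudins, the keratins of the main layers, the tested Dsg, Dsc and Pkp genes, the 5 most variable members and those with a trend. Krt16, Krt20, Krt23, Krt32, Cldn8 and the ratios were chosen after their values were seen. Alternatives covered pseudocount, filter, scaling, variance, covariates, time span, period and left-out libraries. Flg was not in the table. Python 3.11.15 with pandas 2.3.3, numpy 2.4.6 and scipy 1.17.1 was used for descriptions, and matplotlib 3.10.9 for figures.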

Additional observations from a re-analysis of the deposited data

How the results depend on the processing

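The count of members that differed stayed between 31 and 39 under every change of pseudocount, filter, scaling, variance or covariates, and between 34 and 38 when 1 library was left out (29 to 32 higher, 4 to 7 lower), with 3445 to 4224 genes in all (1506 to 1951 higher, 1939 to 2273 lower). No fold change that had passed turned its direction. With the first 6 time points alone 23 members passed, 18 higher, of 1331 genes (614 higher and 717 lower), and with the last 6 alone the members lower fell to 3, of 2072 genes (1022 higher and 1050 lower). Fewer libraries entered these fits. Krt1 then kept its direction but not its call in the last 6 (-0.64, adjusted p = 0.102). Members that lost their call in both spans included Trp63 (adjusted p = 0.112 and 0.0906), Dsg2 (0.0825 and 0.0886), Cldn5, Cldn2, Pkp2 and Pkp4. Krt15, Krt17, Jup, Pkp1, Pkp3, Dsg4 and Grhl2 were among those that lost it in the first 6 only. Epcam and Krt4 lost it in the last 6 only, where Krt77 and Krt80 gained one. Median-ratio scaling gave 2062 genes higher and 1956 lower and ended the call of Pkp2 (adjusted p = 0.0626), and quantile normalization ended that of Cldn2 (0.0672), as did dropping the filter (0.0587). The cause was not tested. With the time point as a block, 39 members passed, 31 higher and 8 lower, of 4374 genes, among them Krt10 (adjusted p = 0.0296), Krt13 (0.0298) and Krt77 (0.0487), while the call of Cldn8 was lost (0.0518). In the same block fit Cldn2 passed at an adjusted p of 0.000316, and Pkp2 and Pkp4 at 0.0368 each. Krt10 also passed with trend and rhythm as covariates (0.0369) and in the first 6 time points (0.0472). Leaving out 1 library, chosen after seeing the data for the time fits, gave 5 to 11 members with a trend in WT and 1 to 5 in KO, and 0 with a rhythm. Depth limits genes under about 20 fragments per library, such as Dsc3, Dsg4, Krt32, Krt75 and Cldn11.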

Other observations

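Most keratin genes of the hair and of special epithelia were scarcely read in these cultures. The type II chain Krt2 of the uppermost epidermal layers was at 0.0682 ± 0.0517 RPKM in WT and 0.0684 ± 0.0241 in KO, and Krt9 of palm and sole epidermis at 0.0260 ± 0.0175 and 0.0335 ± 0.0268, while Krt1 of the epidermis in general was at 66.6 ± 28.4 in WT. Krt12, the keratin of the corneal epithelium, had a mean of 0.375 WT and 0.333 KO fragments. Among claudins, Cldn16 of the kidney tubule and Cldn14 of the inner ear and kidney had fragments in 1 library each, of KO and of WT. Krt31, a hair cortex keratin below the filter, was at a mean of 0.180 RPKM in WT and 0.0939 in KO. These values were not tested.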
